A study of Mus musculus with 18 samples.

Results

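The NRF2 antioxidant genes described here are 9 of the 24419 gene symbols measured by RNA-seq in mouse hearts after acute myocardial infarction (AMI). They were chosen by symbol for their role, with earlier results of these data already known. They are Nfe2l2, which encodes NRF2 itself, Keap1, which encodes its inhibitor, and the target genes Hmox1, Nqo1, Gclc, Gclm, Slc7a11, Txnrd1 and Srxn1. All 9 were found in the table. Left ventricle was taken from 18 male C57BL/6 mice 8 weeks old, 3 per group, with no transgene or drug beyond the anaesthetic that all mice received. The left anterior descending coronary artery was tied off near its origin in 15 of them, and infarcted myocardium was collected at 10 min, 1 h, 6 h, 24 h or 72 h. The 3 reference mice, called Control in the labels, are the sham group of the study.

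NRF2 is a transcription factor that is made and destroyed continuously. KEAP1 holds it in the cytoplasm and passes it to the CUL3 ubiquitin ligase, so that the protein turns over quickly in unstressed cells. Electrophiles and peroxides modify cysteines of KEAP1, NRF2 then escapes, enters the nucleus, pairs with a small MAF protein and binds antioxidant response elements in DNA. The genes it switches on make glutathione, recycle thioredoxin and peroxiredoxins, and break down haem and quinones. Much of this control acts on the protein, which RNA levels do not show. In the heart the pathway is known as a defence against the oxidants that ischaemia produces.

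Levels are in FPKM, a read abundance corrected for transcript length and library size, and each was measured in its own mouse. A gene is said to have risen or fallen, or to be called, where the adjusted p was under 0.05 in limma on log2(FPKM + 1), with 3 mice against 3 and adjustment over every gene tested in the comparison. A log2 change is the difference of 2 group means on this scale and is printed ± its SE, while levels and ratios are printed ± SD over 3 mice. The scale understates the change of genes with low FPKM. The depth of the libraries relative to the first sham mouse was 0.813 to 1.32, and at 72 h it was 1.24 to 1.32. All 9 genes passed the filter on low values, which asked for 1 or more FPKM in any mouse, but Slc7a11 passed it only through mice at 6 h or later.

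The stretch just upstream of the transcription start of 4 of these genes is shown because they stand for the different behaviours described below: Srxn1 and Gclm rose, Nfe2l2 encodes the regulator, and Nqo1 fell. Each line holds the 250 bases before a RefSeq start in GRCm38.p6, the same assembly as mm10, printed 5′ to 3′ on the strand of the gene. Capitals mark matches on either strand to TGANNNNGC, the letters shared by antioxidant response elements. The Srxn1 stretch (chr2:152105274-152105523, plus strand) holds 3 matches.
Srxn1: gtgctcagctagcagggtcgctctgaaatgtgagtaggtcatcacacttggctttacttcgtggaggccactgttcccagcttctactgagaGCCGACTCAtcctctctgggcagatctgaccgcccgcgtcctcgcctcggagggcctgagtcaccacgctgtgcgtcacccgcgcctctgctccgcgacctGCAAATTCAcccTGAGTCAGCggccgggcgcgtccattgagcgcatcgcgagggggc
Gclm: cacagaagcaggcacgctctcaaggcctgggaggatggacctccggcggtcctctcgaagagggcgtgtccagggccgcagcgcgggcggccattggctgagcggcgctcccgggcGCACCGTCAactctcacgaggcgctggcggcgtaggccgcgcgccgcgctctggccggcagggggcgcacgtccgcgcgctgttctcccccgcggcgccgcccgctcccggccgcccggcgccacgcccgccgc
Nfe2l2: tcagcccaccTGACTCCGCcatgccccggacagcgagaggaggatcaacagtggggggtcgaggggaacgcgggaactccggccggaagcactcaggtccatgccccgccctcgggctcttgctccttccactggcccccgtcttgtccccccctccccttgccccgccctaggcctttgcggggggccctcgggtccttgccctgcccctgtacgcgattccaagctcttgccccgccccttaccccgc
Nqo1: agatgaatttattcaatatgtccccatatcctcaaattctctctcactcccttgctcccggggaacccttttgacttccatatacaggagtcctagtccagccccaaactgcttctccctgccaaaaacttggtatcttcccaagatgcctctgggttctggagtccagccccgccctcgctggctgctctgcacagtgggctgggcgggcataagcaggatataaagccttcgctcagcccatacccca
The Gclm stretch (chr3:122245307-122245556, plus strand) and the Nfe2l2 stretch (chr2:75704664-75704913, minus strand) hold 1 match each, and the Nqo1 stretch (chr8:107403206-107403455, minus strand) holds 0.

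The promoter table has 9 starts for 7 of the 9 genes, with 3 starts for Txnrd1 and none for Hmox1 and Gclc. TGANNNNGC was found before 7 of the 9 starts, in Gclm, Keap1, Nfe2l2, Slc7a11, Srxn1 and Txnrd1, and before 35.2% of all 32851 starts in the table. The stricter TGACNNNGC was found before 3 of the 9 starts, in Gclm, Nfe2l2 and Txnrd1, against 10.2% of all starts. TGANTCAGC, which contains the AP-1 letters TGANTCA, was found only before the Srxn1 start, against 1.02% of all starts. In Srxn1 this match, TGAGTCAGC, lies 45 to 37 bases before the start. These are matches of letters, not measured binding sites, and elements that lie further upstream are outside this window.

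None of the 9 genes passed the test against sham in the first hour, and 7 of them rose between 1 h and 6 h. At 10 min, 0 of the 9 were called, with 0.346% of all genes tested called. An unadjusted p under 0.05 in limma was found for 0 members and 14.7% of all genes. At 1 h, 0 of the 9 were called against 0.722% of all genes. Here 2 of the 9 members and 12.6% of all genes had an unadjusted p under 0.05 in limma. The 2 members were Hmox1, with all 1 h mice above sham, and Nqo1, with all below. At 6 h, 7 members had risen and Nqo1 had fallen, where 11.6% of all genes rose and 16.8% fell. At 24 h, 5 members had risen and 0 had fallen, where 26.2% of all genes rose and 11.4% fell. At 72 h, 7 had risen and Nqo1 had fallen, but 53.1% of all genes rose and 24.2% fell at this time. The 9 genes had a median log2 change of 0.53 at 6 h, 1.02 at 24 h and then 0.90 at 72 h, beside -0.08, 0.13 and 0.29 for the whole set tested. These medians include Slc7a11, which passed the filter only through mice at 6 h or later, and they are descriptions only.

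These counts leaned on single mice and on scaling to different degrees. At 6 h the count of 8 became 4 without any 1 of the sham mice and 5 without mouse 1 of the 6 h group. Hmox1, Gclm, Txnrd1 and Srxn1 were called at 6 h, 24 h and 72 h in all 15 alternative settings. With median-of-ratios scaling the split at 72 h was 6 higher and 2 lower, and with quantile normalization it was 5 and 2. At 6 h both scalings gave 7 higher and 0 lower. In whole tissue, fewer cells of a type and less RNA per cell cannot be told apart, and this holds for every fall and rise below.

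**Figure D1:**
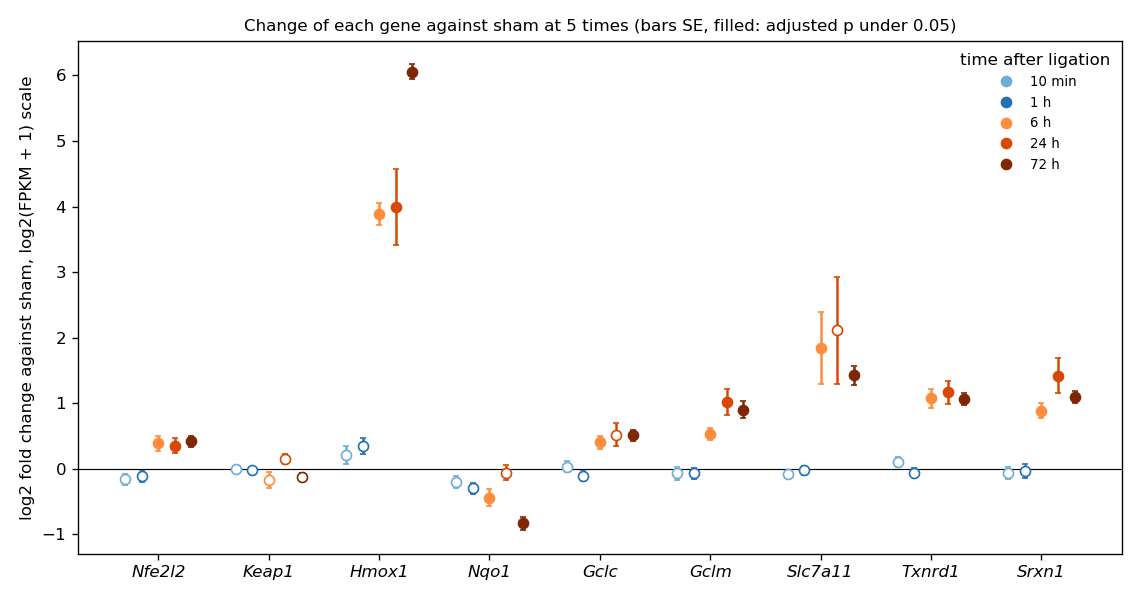
Log2 change against sham on the log2(FPKM + 1) scale (y axis) for each of the 9 genes (x axis) at 5 times after ligation (colours), with bars for the SE and filled points where the adjusted p was under 0.05. The points at 10 min and 1 h lie near 0 and are all open, Hmox1 reaches 6.06 at 72 h, and Nqo1 lies below 0.

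Nfe2l2 (chr2:75675513-75704641, minus strand, mm10) rose at each of the 3 late times, with calls that depended on the setting. In sham hearts the mice had 6.75, 6.59 and 7.89 FPKM, and the mice at 10 min had 6.19, 6.28 and 6.19 FPKM. At 6 h the values were 10.4, 8.51 and 9.81 FPKM, at 24 h 8.52, 9.09 and 10.3 FPKM, and at 72 h 9.35, 9.99 and 10.1 FPKM. Every mouse from 6 h on lay above every sham mouse, and the ranges at 6 h, 24 h and 72 h overlapped each other. The log2 change from sham was 0.39 ± 0.11 at 6 h (adjusted p = 0.0375), 0.35 ± 0.11 at 24 h (adjusted p = 0.0453) and 0.42 ± 0.08 at 72 h (adjusted p = 0.00156). The call at 6 h was lost in 8 of 15 alternative settings, among them leaving out any 1 sham mouse or mouse 1 or 3 of the 6 h group, equal FPKM sums (adjusted p = 0.0510) and the replicate number as a block (adjusted p = 0.0610). That at 24 h was lost in 9 of 15, with the highest adjusted p, 0.215, under quantile normalization. At 72 h it was lost with median-of-ratios scaling (0.14, adjusted p = 0.108) and quantile normalization (0.01, adjusted p = 0.947).

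Keap1 (chr9:21229730-21239361, minus strand), the sensor and inhibitor, had the highest FPKM of the 9 in sham hearts. Sham values were 61.9, 64.1 and 62.5 FPKM. At 6 h the mice spread over 47.1, 55.3 and 65.9 FPKM, at 24 h they had 71.0, 67.2 and 71.6 FPKM, and at 72 h 59.2, 56.8 and 56.9 FPKM. The 24 h mice all lay above the sham mice and the 72 h mice all below them, but neither difference was called, with log2 changes of 0.15 (adjusted p = 0.130) and -0.12 (adjusted p = 0.0796). Between 24 h and 72 h Keap1 fell, with a log2 change of -0.27 ± 0.09 (adjusted p = 0.0390), a call lost in 7 of 15 settings. Against sham at 72 h, Keap1 had a log2 change of -0.43 with median-of-ratios scaling (adjusted p = 0.000279) and -0.29 with quantile normalization (adjusted p = 0.00213), so whether it passed the test depended on the scaling. Exons of Keap1 overlap those of Gm16754 on the opposite strand, and the library kit does not mark strand.

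Within each mouse, the ratio of Nfe2l2 to Keap1 does not depend on scaling by a factor per library. It was 0.113 ± 0.012 in sham (SD, n = 3), 0.174 ± 0.040 at 6 h, 0.133 ± 0.012 at 24 h and 0.170 ± 0.011 at 72 h. All mice at 6 h and at 72 h lay above the highest sham mouse, which had 0.126, and the 24 h mice overlapped sham.

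Hmox1 (chr8:75093621-75100589, plus strand), which encodes the inducible haem oxygenase, had the largest log2 change of the 9 at 6 h, 24 h and 72 h on the log2(FPKM + 1) scale. By the ratio of mean FPKM to sham, Slc7a11 changed more at 6 h (64.9 against 17.9 times) and 24 h (116 against 25.3 times), from a sham level near 0. Its level in the sham mice was 3.85, 4.77 and 5.20 FPKM, the mice at 10 min 5.58, 4.49 and 6.36 FPKM, and those at 1 h 5.37, 7.004 and 5.92 FPKM. The 1 h mice all lay just above the sham mice, with a log2 change of 0.34 that was not called (adjusted p = 0.332). At 6 h the mice had 93.0, 64.2 and 90.3 FPKM, which is 17.9 times the sham mean (log2 change 3.88 ± 0.16, adjusted p = 5.41e-05). At 24 h they had 68.2, 40.4 and 240.4 FPKM (log2 change 3.99 ± 0.58, adjusted p = 0.00552). The third mouse stood far above the others at 24 h, and without it the log2 change was 3.26 ± 0.22 (adjusted p = 0.000264).

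At 72 h Hmox1 stood at 345, 355 and 416 FPKM, 80.8 times the sham mean (log2 change 6.06 ± 0.11, adjusted p = 8.73e-09). No mouse at 72 h overlapped the 24 h mice, and the rise from 24 h to 72 h was 2.07 ± 0.57 on the log2 scale (adjusted p = 0.0219). This step was not called without mouse 1 of the 24 h group (1.90, adjusted p = 0.0781) or without any 1 of the 72 h mice, where the largest adjusted p was 0.0707. Hmox2, the constitutive haem oxygenase, was at 46.9 ± 1.5 FPKM in sham (SD, n = 3) and 59.3 ± 1.6 FPKM at 72 h. The ratio of Hmox1 to Hmox2 within a mouse went from 0.0985 ± 0.0175 in sham to 1.56 ± 0.39 at 6 h, 2.56 ± 2.37 at 24 h and 6.29 ± 0.80 at 72 h.

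**Figure D2:**
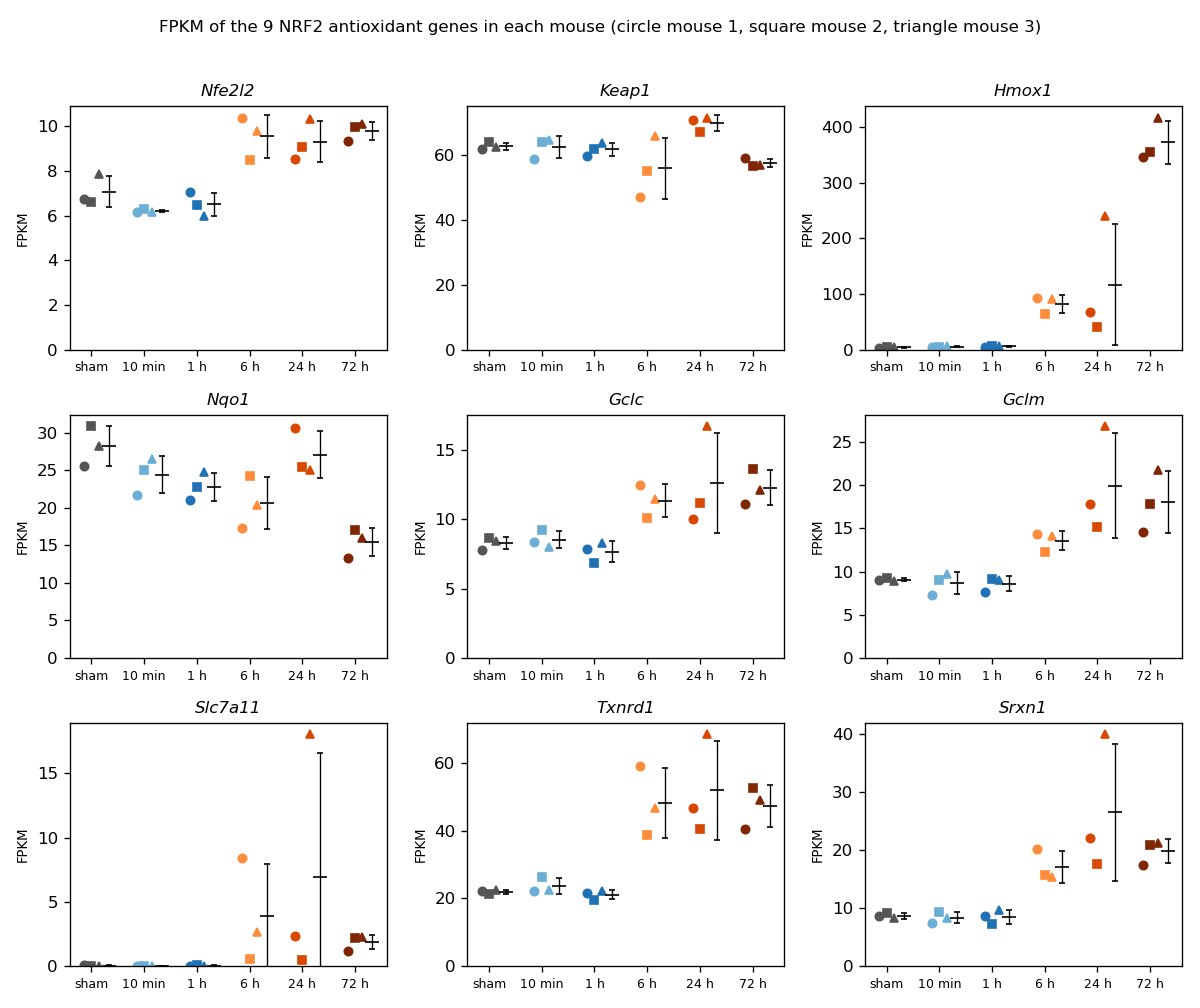
FPKM of the 9 genes (y axes, linear from 0) in each of 18 mice by group (x axes), with black bars for the mean ± SD of 3 mice, cut at 0. Hmox1 climbs from at most 7.004 FPKM up to 1 h to at least 345 FPKM at 72 h, the third 24 h mouse is the highest of its group in 8 of the 9 panels, and Nqo1 is lowest at 72 h.

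The cell types in the tissue changed over the same hours, which was read from marker genes listed for each type. The summed FPKM of 6 macrophage markers was 183 to 213 in sham, 176 to 209 at 6 h, 290 to 356 at 24 h and 1746 to 2244 at 72 h. At 6 h Hmox1 was thus 17.9 times sham while the macrophage sum was 0.966 times sham, with 1 of 6 markers called higher and 1 lower. At 72 h both were raised, with 6 of 6 macrophage markers called higher and a sum 10.2 times sham. This was not particular to macrophages. The sum of 5 fibroblast markers was 9.75 times sham at 72 h, with 5 of 5 called higher. Of all genes, 11.6%, 26.2% and 53.1% were called higher at 6 h, 24 h and 72 h. The sum of 5 pan-leukocyte markers was 46.7 to 68.1 in sham, 65.5 to 224 at 6 h, 254 to 575 at 24 h and 867 to 1028 at 72 h. The sum of 4 monocyte markers was 2.05 to 2.84 in sham, 12.1 to 37.6 at 6 h, 39.0 to 184 at 24 h and 91.7 to 114 at 72 h. All 4 were called higher at each of these late times. The sum of 5 neutrophil markers was 2.32 to 4.99 in sham, 116 to 997 at 6 h, 42.6 to 965 at 24 h and 49.6 to 60.2 at 72 h. At 6 h, 24 h and 72 h the order of the 3 mice by Hmox1 was their order by this sum. The part of these cells in the Hmox1 level was not tested.

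Gclc and Gclm encode the catalytic and the modifier subunit of glutamate-cysteine ligase, the rate-limiting enzyme of glutathione synthesis. Gclc (chr9:77754535-77794485, plus strand) was at 7.82, 8.64 and 8.43 FPKM in sham, 12.5, 10.1 and 11.4 FPKM at 6 h, 9.99, 11.2 and 16.7 FPKM at 24 h, and 11.1, 13.6 and 12.1 FPKM at 72 h. All mice from 6 h on lay above all sham mice. It rose at 6 h (log2 change 0.41 ± 0.10, adjusted p = 0.0247) and again, by 0.51 ± 0.09, at 72 h (adjusted p = 0.000673). The 6 h call was lost with the replicate number as a block (adjusted p = 0.0637), without any 1 of the sham mice and without mouse 1 of the 6 h group (0.34, adjusted p = 0.0504). At 24 h the log2 change of 0.52 ± 0.18 had a wider error and was not called (adjusted p = 0.0559). Without the third 24 h mouse it was 0.32 and called (adjusted p = 0.0360). With quantile normalization the rise at 72 h was not called (0.10, adjusted p = 0.280).

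Gclm (chr3:122245557-122270732, plus strand) had larger log2 changes than Gclc at 24 h and 72 h. Its values were 9.04, 9.28 and 8.91 FPKM in sham, 14.4, 12.3 and 14.1 FPKM at 6 h, 17.9, 15.2 and 26.9 FPKM at 24 h, and 14.6, 17.8 and 21.8 FPKM at 72 h. The 24 h and the 72 h mice all lay above the 6 h mice. The log2 change of Gclm was 0.53 ± 0.09 at 6 h (adjusted p = 0.00679), 1.02 ± 0.19 at 24 h (adjusted p = 0.0102) and 0.90 ± 0.13 at 72 h (adjusted p = 0.000192). The ratio of Gclm to Gclc in a mouse was 1.06 to 1.16 in sham, 1.15 to 1.23 at 6 h, 1.36 to 1.79 at 24 h and 1.31 to 1.79 at 72 h, so that the 24 h and 72 h mice lay above all sham mice and the 6 h mice overlapped them. Exons of Gclm overlap those of Gm6061 on the same strand and Gm17494 on the other, so its reads may be shared.

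Slc7a11 (chr3:49892526-50443614, minus strand) encodes xCT, the subunit of the cystine importer that carries out transport, and it was close to absent before 6 h. The sham mice had 0.0934, 0.0603 and 0.0263 FPKM, the gene was listed at 0 in 2 mice at 10 min and 1 mouse at 1 h, and no mouse up to 1 h exceeded 0.101 FPKM. At 6 h the mice had 8.42, 0.601 and 2.66 FPKM, at 24 h 2.36, 0.497 and 18.0 FPKM, and at 72 h 1.23, 2.17 and 2.27 FPKM. Every mouse from 6 h on was above every earlier mouse, but the mice within a group differed widely, with a coefficient of variation of 104% at 6 h and 138% at 24 h. On the log2 scale Slc7a11 changed by 1.85 ± 0.55 at 6 h (adjusted p = 0.0428), 2.11 ± 0.82 at 24 h (not called, adjusted p = 0.0797) and 1.43 ± 0.15 at 72 h (adjusted p = 2.93e-05). Without mouse 1 of the 6 h group the 6 h value was 1.19 (adjusted p = 0.0382), and without mouse 3 of the 24 h group the 24 h value was 1.08 and called (adjusted p = 0.0341). Without mouse 2 of the 24 h group it was 2.92, also called (adjusted p = 0.0289). The 6 h call was lost in 5 of 15 settings, among them leaving out any 1 sham mouse or mouse 3 of the 6 h group, and the 72 h call with all 18 mice in one fit (adjusted p = 0.0659). With a pseudocount of 0.1 the changes became 4.01, 4.24 and 3.61, all called, so the size of the change depends on the pseudocount. Because the gene passed the filter only through these late mice, its rise lends no support to the count or the median change of the group. Without Slc7a11, 6 of 8 members rose both at 6 h and at 72 h, and 5 of 8 rose at 24 h.

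The mice of a late group stood in the same order by Slc7a11 and by neutrophil markers. The summed FPKM of 5 neutrophil markers was 2.32 to 4.99 in sham. It was 997, 116 and 375 in mice 1, 2 and 3 of the 6 h group, 209, 42.6 and 965 in those of the 24 h group, and 49.6, 59.1 and 60.2 in those of the 72 h group. At 6 h, 24 h and 72 h the order of the 3 mice by Slc7a11 was their order by the neutrophil sum. This order was not particular to that pair. The monocyte sum, at 37.6, 12.1 and 16.9 in mice 1, 2 and 3 at 6 h and 66.8, 39.0 and 184 at 24 h, gave it too. Among the members, Hmox1, Gclm and Txnrd1 also followed it at both 6 h and 24 h. Hmox1 and Gclm stood in the order of the neutrophil sum at 72 h too, as Slc7a11 did. All 5 neutrophil markers were called higher at 6 h and 4 of 5 at 24 h and at 72 h, where 11.6%, 26.2% and 53.1% of all genes were. Slc3a2, the heavy chain that anchors xCT in the membrane, was at 8.97 ± 1.42 FPKM in sham (SD, n = 3), 30.0, 27.6 and 26.6 FPKM in mice 1, 2 and 3 at 6 h, and 22.5, 15.9 and 31.0 FPKM at 24 h. Its 24 h mice thus stood in the order of Slc7a11, with a narrower spread. The part of neutrophils and monocytes in the Slc7a11 level was not tested.

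**Figure D3:**
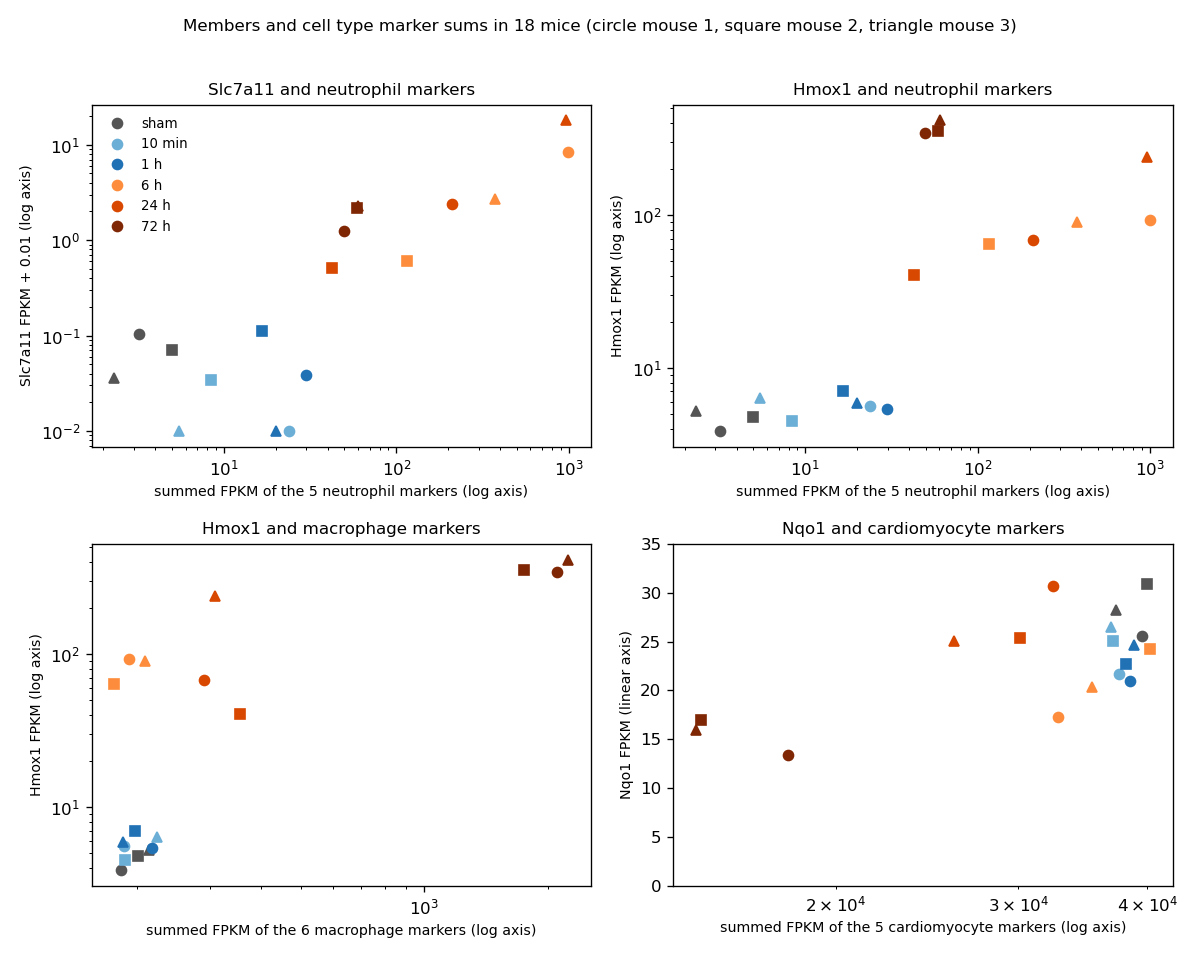
FPKM of Slc7a11 (plus 0.01, log axis), Hmox1 (log axis) and Nqo1 (linear axis) against the summed FPKM of neutrophil, macrophage or cardiomyocyte markers (x axes, log) in 18 mice, coloured by group. The mice at 6 h have raised Hmox1 at a macrophage sum of 176 to 209, inside or near the sham range of 183 to 213. Within the 6 h and 24 h groups, Slc7a11 and Hmox1 both stand in the order of the neutrophil sum.

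Txnrd1 (chr10:82833951-82897712, plus strand), the cytosolic thioredoxin reductase, was raised to about the same level at the 3 late times. The sham mice had 22.2, 21.4 and 22.5 FPKM. The values were 59.0, 38.7 and 46.8 FPKM at 6 h, 46.7, 40.6 and 68.4 FPKM at 24 h, and 40.5, 52.5 and 49.0 FPKM at 72 h. Every late mouse lay above every mouse up to 1 h, and the 3 late groups overlapped each other. Txnrd1 changed by 1.07 ± 0.14 on the log2 scale at 6 h (adjusted p = 0.00300), 1.16 ± 0.18 at 24 h (adjusted p = 0.00634) and 1.06 ± 0.10 at 72 h (adjusted p = 1.22e-05).

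Txnrd2, the mitochondrial counterpart, was not raised. It was at 9.99 ± 0.29 FPKM in sham (SD, n = 3) and fell to 5.45 ± 0.44 FPKM at 72 h (log2 change -0.77 ± 0.08, adjusted p = 2.42e-05). The ratio of Txnrd1 to Txnrd2 in a mouse was 2.099 to 2.33 in sham, 4.29 to 7.403 at 6 h, 4.76 to 9.45 at 24 h and 6.80 to 10.2 at 72 h. The late mice all lay above the sham mice, and so did the mice at 10 min, with 2.40 to 2.74.

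Srxn1 (chr2:152105516-152111376, plus strand) encodes sulfiredoxin, which restores overoxidised peroxiredoxins, and is the gene whose upstream stretch above holds TGAGTCAGC. Without infarction the values were 8.66, 9.25 and 8.27 FPKM. The values were 20.2, 15.7 and 15.4 FPKM at 6 h, 22.1, 17.5 and 39.9 FPKM at 24 h, and 17.5, 20.9 and 21.2 FPKM at 72 h. All late mice lay above all sham mice, with neighbouring late groups overlapping. For Srxn1 the log2 change was 0.89 ± 0.12 at 6 h (adjusted p = 0.00309), 1.42 ± 0.27 at 24 h (adjusted p = 0.0104) and 1.10 ± 0.09 at 72 h (adjusted p = 6.65e-06). Without the third 24 h mouse the value at 24 h was 1.09 (adjusted p = 0.00113).

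**Figure D4:**
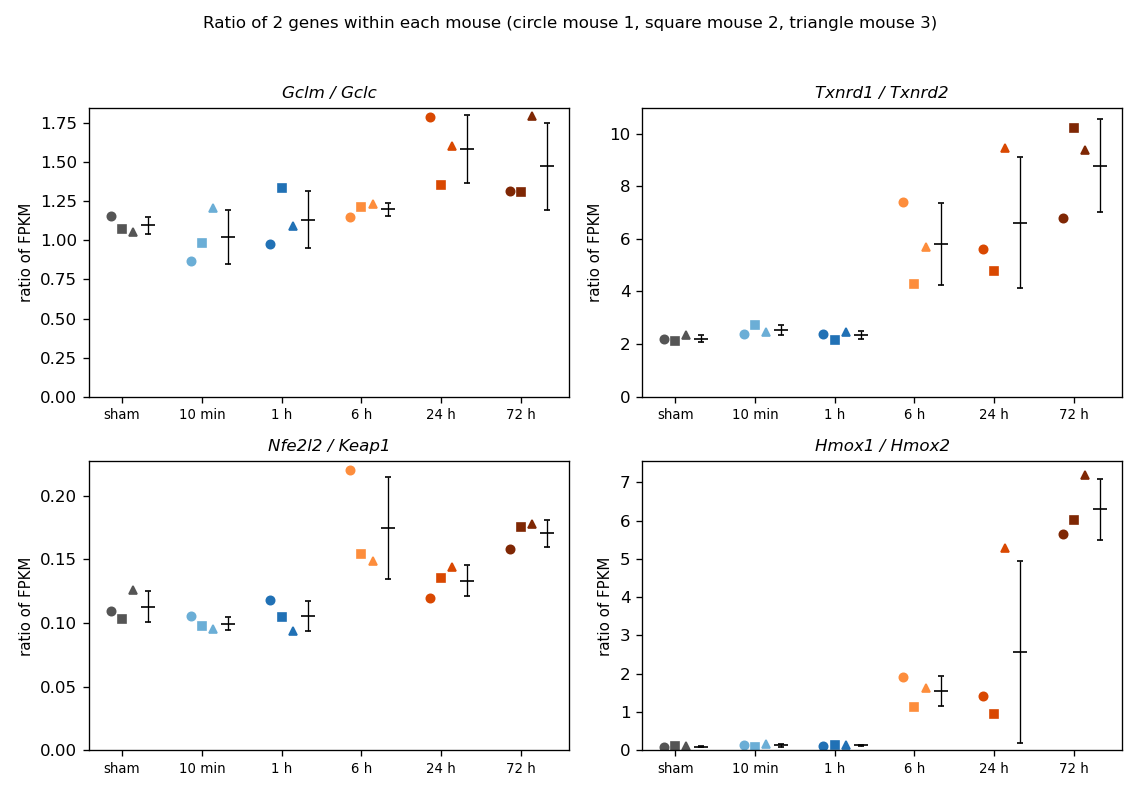
Ratio of the FPKM of 2 genes within each mouse (y axes, linear from 0) by group (x axes) for Gclm to Gclc, Txnrd1 to Txnrd2, Nfe2l2 to Keap1 and Hmox1 to Hmox2, with black bars for the mean ± SD of 3 mice. The Gclm to Gclc ratio leaves the sham range at 24 h and 72 h, and the Txnrd1 to Txnrd2 ratio goes from 2.21 in sham to 8.79 at 72 h.

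Nqo1 (chr8:107388225-107403206, minus strand), which encodes the quinone reductase widely used as a readout of NRF2, went the other way from the other targets. The sham mice had 25.6, 30.9 and 28.3 FPKM, and the mice at 1 h had 21.0, 22.7 and 24.7 FPKM, all below sham though not called (log2 change -0.30, adjusted p = 0.254). At 6 h the mice had 17.3, 24.2 and 20.3 FPKM, and the log2 change of -0.44 ± 0.13 was called (adjusted p = 0.0427). At 24 h they had 30.7, 25.4 and 25.1 FPKM, which overlapped sham with 2 mice just below its lowest value (log2 change -0.06, adjusted p = 0.681). At 72 h they had 13.3, 17.0 and 15.9 FPKM, 0.546 times the sham mean (log2 change -0.83 ± 0.10, adjusted p = 8.74e-05). The fall from 24 h to 72 h was -0.77 on the log2 scale (SE 0.13, adjusted p = 0.00302).

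The fall of Nqo1 at 72 h was called in all 15 alternative settings, while that at 6 h was lost in 8 of 15, among them median-of-ratios scaling, quantile normalization and leaving out any 1 sham mouse or mouse 1 or 3 of the 6 h group. Beside it, the summed FPKM of 5 cardiomyocyte markers was 37336 to 39976 in sham, 32785 to 40219 at 6 h, 25992 to 32404 at 24 h and 14649 to 17993 at 72 h, which is 0.406 times sham, with 5 of 5 markers called lower at 72 h. At 24 h the cardiomyocyte sum was 0.758 times sham while Nqo1 was 0.958 times sham. The part of cardiomyocyte RNA in the Nqo1 level was not tested. Hmox1 was at 0.151 to 0.184 of the Nqo1 level in sham mice, and at 72 h it was at 20.9 to 26.1 times that level.

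The same mice were often the highest or the lowest of their group. At 6 h mouse 1 was the highest of its group for 7 of the 9 genes, and the lowest for Keap1 and Nqo1, while mouse 2 was the lowest for 6. At 24 h mouse 3 was the highest for 8 of the 9, and the lowest for Nqo1, and mouse 2 was the lowest for 6. At 72 h mouse 1 was the lowest for 8 and the highest for Keap1. The first 6 h mouse and the third 24 h mouse also had the highest neutrophil and monocyte sums of their groups. With 3 mice per group these are descriptions of single animals.

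Ordered by mean FPKM over the 6 groups, the levels followed several patterns. Hmox1 was highest at 72 h, with ranges apart from 24 h, and its 24 h and 6 h ranges overlapped. Gclc, Gclm, Slc7a11, Txnrd1 and Srxn1 had their highest mean at 24 h, at 12.6, 19.97, 6.96, 51.9 and 26.5 FPKM, but in each of these genes the 24 h range overlapped that of the next group. Nfe2l2 had its highest mean at 72 h, with 9.81 ± 0.40 FPKM (SD, n = 3), and did not stand apart from 6 h or 24 h. Nqo1 was highest in sham and lowest at 72 h, where it stood apart from 6 h, its neighbour in the order. Keap1 had its highest mean at 24 h, with ranges apart from sham, the next in order.

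Direct comparisons of successive times placed the change between 1 h and 6 h. From 10 min to 1 h, 0 of the 9 genes were called, where 0.602% of all genes were. An unadjusted p under 0.05 in limma was found for 0 of the 9 and 13.1% of all genes. From 1 h to 6 h, 7 rose and 0 fell, where 9.32% of all genes rose and 11.2% fell. The count of 7 became 4 without any 1 of the 1 h mice. Slc7a11 passed at an adjusted p of 0.04997 in this comparison. From 6 h to 24 h, 0 were called in limma with 3 mice against 3, where 14.4% of all genes were. Under an unadjusted p of 0.05 in limma were 3 of the 9 (Keap1, Nqo1 and Gclm, all higher) and 36.4% of all genes. When all 18 mice were fitted together, 4 of the 9 were called higher. From 24 h to 72 h, Hmox1 rose and Keap1 and Nqo1 fell, where 29.7% of all genes rose and 13.5% fell. That count of 3 became 1, Nqo1 alone, without mouse 1 of the 24 h group or any 1 of the 72 h mice.

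The rest of the pathway was read from 10 lists of 104 genes, of which 101 were tested. At 10 min 1 of these was called higher, Txnip, which encodes an inhibitor of thioredoxin (76.8, 99.0 and 76.6 FPKM in sham, 145, 140 and 157 FPKM at 10 min, log2 change 0.81, adjusted p = 0.0369). That call was lost in 9 of 15 settings, among them leaving out any 1 of the 10 min mice or sham mouse 1 or 3, no filter and all 18 mice in one fit (adjusted p = 0.273). At 1 h Txnip (1.05) and Maff (1.10) were called higher, Maff not with all 18 mice in one fit. At 6 h 15 rose and 9 fell, which is 14.9% and 8.91% beside 11.6% and 16.8% of all genes. At 24 h 33 rose and 21 fell, 32.7% and 20.8% beside 26.2% and 11.4%. At 72 h 49 rose and 41 fell, 48.5% and 40.6% beside 53.1% and 24.2%. The counts of single lists below are to be read against these same shares of all genes. Among genes counted as higher, Abcc3, Sesn2 and Mgst2 had sham means of 0.647, 0.359 and 0.152 FPKM. They passed the filter of 1 FPKM only through mice after ligation, so their rises lend no support to these counts. Among the genes named below, leaving out any 1 sham mouse ended the 24 h calls of Mafg, Gsr, Ephx1 and Nqo2 and the 6 h call of Gsr. The median log2 change of the 101 pathway genes tested was -0.03 at 6 h, 0.07 at 24 h and 0.14 at 72 h, beside -0.08, 0.13 and 0.29 for all genes tested.

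**Figure D5:**
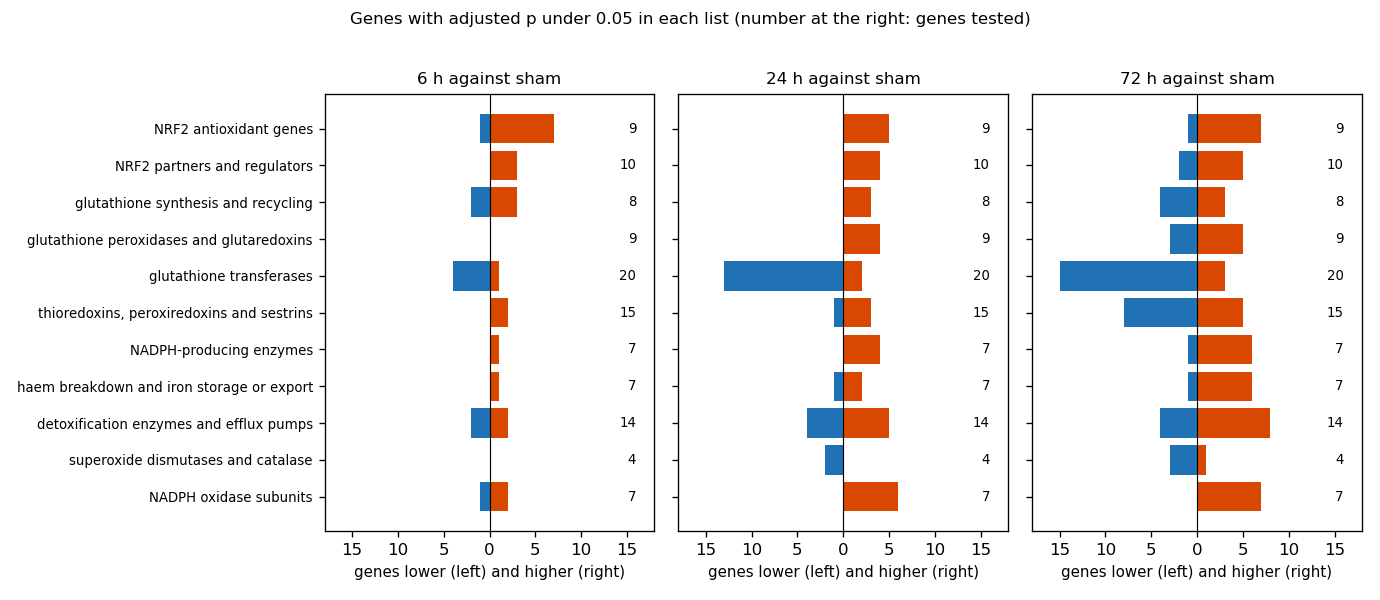
Number of genes called higher (right, orange) and lower (left, blue) against sham in the 9 NRF2 antioxidant genes and the 10 other lists of the pathway at 6 h, 24 h and 72 h, with the number tested at the right of each row. Glutathione transferases are called lower in 13 of 20 at 24 h and 15 of 20 at 72 h, and NADPH oxidase subunits are called higher in 7 of 7 at 72 h. Of all genes, 11.4% are called lower at 24 h and 24.2% at 72 h, and 53.1% are called higher at 72 h.

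Among the partners and regulators of NRF2, the small MAF genes moved first. Maff was at 4.76, 5.96 and 6.21 FPKM in sham, 15.3, 11.9 and 12.6 FPKM at 1 h, 55.5, 35.4 and 29.6 FPKM at 6 h, 15.4, 14.01 and 32.1 FPKM at 24 h and 9.61, 9.54 and 9.30 FPKM at 72 h. All mice from 1 h on lay above the sham mice. Mafk and Mafg also rose at 6 h (log2 changes 1.47 and 0.63) and 24 h (1.24 and 0.75). Of 10 genes tested in this list, 3 rose and 0 fell at 6 h, and 4 rose and 0 fell at 24 h. At 72 h 5 rose and 2 fell (50.0% and 20.0%, near the 53.1% and 24.2% of all genes), with Bach1, a repressor that competes for the same elements, at 35.8 ± 1.6 FPKM in sham and 80.5 ± 8.2 FPKM (SD, n = 3; log2 change 1.14), and Cul3, the ligase scaffold, at -0.45. That split was 3 higher and 4 lower with median-of-ratios scaling, and 2 and 4 with quantile normalization.

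In the list of glutathione synthesis and recycling, 3 of 8 genes rose and 2 fell at 6 h, 3 rose and 0 fell at 24 h, and 3 rose and 4 fell at 72 h. The shares called higher, 37.5% at each time, compare with 11.6%, 26.2% and 53.1% of all genes. Slc3a2 rose at all 3 times (log2 changes 1.55, 1.24 and 1.42), and so did Gsr, the glutathione reductase (0.62, 1.51 and 1.17). Gsr was at 34.3, 24.5 and 82.8 FPKM at 24 h, with mouse 3 the highest as for 8 of the 9 NRF2 genes. Oplah, which recycles 5-oxoproline, fell at 72 h (-1.23), and Chac2, which degrades glutathione, fell at 6 h (-0.84) and 72 h (-0.61). With either of the scalings named above, the split at 72 h was 2 higher and 5 lower with Gss no longer called higher.

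Of 9 glutathione peroxidases and glutaredoxins, 0 were called at 6 h, 4 rose at 24 h, and 5 rose and 3 fell at 72 h. The 55.6% higher and 33.3% lower at 72 h compare with 53.1% and 24.2% of all genes. Gpx1 rose from 71.7 ± 3.5 FPKM in sham to 356 ± 20 FPKM at 72 h, and Gpx7, an enzyme of the endoplasmic reticulum, from 11.6 ± 1.2 to 124 ± 3 FPKM (SD, n = 3). Gpx4, which reduces lipid peroxides in membranes, fell at 72 h (log2 change -0.43). With median-of-ratios scaling 2 rose at 6 h and 4 rose and 4 fell at 72 h, and with either other scaling 2 rather than 4 rose at 24 h.

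The glutathione transferases, several of which are known NRF2 targets, mostly fell at 24 h and 72 h. Of 20 tested, 1 rose and 4 fell at 6 h, 2 rose and 13 fell at 24 h, and 3 rose and 15 fell at 72 h. The shares called lower were 20.0%, 65.0% and 75.0%, beside 16.8%, 11.4% and 24.2% of all genes. Gstk1 went from 90.6 ± 4.2 FPKM in sham to 24.6 ± 5.4 FPKM at 72 h (SD, n = 3; log2 change -1.86), and Gstt1 fell at 24 h (-0.96). Gstm1 went from 165.8 ± 9.6 to 55.0 ± 11.9 FPKM, but the Gstm genes are close copies and their reads may be split. The fall of cardiomyocyte markers to 0.406 times sham at 72 h stands beside these values, and its part was not tested. With median-of-ratios scaling the split at 72 h was 1 higher and 16 lower.

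Of 15 thioredoxins, peroxiredoxins and sestrins, 2 rose and 0 fell at 6 h, 3 rose and 1 fell at 24 h, and 5 rose and 8 fell at 72 h. At 72 h that is 33.3% higher and 53.3% lower, beside 53.1% and 24.2% of all genes. The balance at 24 h turned with scaling, to 3 higher and 5 lower with median of ratios and 3 and 4 with quantile normalization, and at 6 h median of ratios gave 4 higher. Txn1, the cytosolic thioredoxin that TXNRD1 reduces, rose at 24 h (log2 change 0.90) and 72 h (1.35). At 72 h Prdx1 (0.98) and Prdx4 (2.04) rose, while Prdx3, the mitochondrial peroxiredoxin (-1.05), Prdx5 (-0.84) and Txnrd2 (-0.77) fell.

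Genes listed for the supply of NADPH, the cofactor of both reductases, were mostly called higher by 72 h. They include Pgls, Tkt and Taldo1, whose enzymes belong to the pentose phosphate pathway but do not make NADPH themselves. Of 7 tested, 1 rose at 6 h and 4 rose at 24 h, while at 72 h 6 rose and 1 fell. The 85.7% called higher at 72 h stands beside 53.1% of all genes, and with median-of-ratios scaling or quantile normalization 5 rose. G6pdx, the entry enzyme of the pentose phosphate pathway, went from 2.82 ± 0.15 FPKM in sham to 8.21 ± 2.17 FPKM at 24 h and 20.6 ± 1.6 FPKM at 72 h (SD, n = 3). Pgd and Tkt also rose at 72 h (log2 changes 2.09 and 2.24), and Me1, the cytosolic malic enzyme, was the gene that fell (-0.91).

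Around haem breakdown, downstream of Hmox1, 1 of 7 genes rose at 6 h, 2 rose and 1 fell at 24 h, and 6 rose and 1 fell at 72 h. Of these 7, 85.7% were thus higher at 72 h where 53.1% of all genes were, and 4 rose with median-of-ratios scaling, which gave 3 rather than 1 at 6 h. Ftl1, the ferritin light chain, rose from 282 ± 5 FPKM in sham to 441 ± 22 FPKM at 6 h, 872 ± 327 FPKM at 24 h and 3603 ± 563 FPKM at 72 h (SD, n = 3). Blvrb, a biliverdin reductase (log2 change 1.86), and Slc40a1, which encodes the iron exporter ferroportin (1.35), rose at 72 h, and Fech, which inserts iron into haem, fell (-0.89). Ferritin genes have processed copies in the genome, so that reads of Ftl1 may be shared.

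Of 14 detoxification enzymes and efflux pumps, 2 rose and 2 fell at 6 h, 5 rose and 4 fell at 24 h, and 8 rose and 4 fell at 72 h. The 57.1% higher and 28.6% lower at 72 h are near the 53.1% and 24.2% of all genes. Akr1b8, an aldo-keto reductase, rose at 24 h (1.86) and 72 h (3.21), and the efflux pump gene Abcc3 at 24 h (1.33) and 72 h (3.51). Ephx1, the microsomal epoxide hydrolase, fell at 6 h (-0.99), 24 h (-0.995) and 72 h (-1.07). Nqo2, the relative of Nqo1, fell at 6 h (-0.60) and 24 h (-0.67). The split at 24 h was 4 higher and 6 lower with quantile normalization. That at 72 h was 7 higher and 6 lower with median-of-ratios scaling, and 6 and 6 with quantile normalization.

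Among the enzymes that remove superoxide and hydrogen peroxide, the 3 intracellular ones fell at 72 h. Of 4 tested, 0 were called at 6 h, 2 fell at 24 h, and at 72 h Sod1 (-0.71), Sod2 (-1.37) and Cat (-0.81) fell while Sod3, the secreted enzyme, rose (1.55). At 72 h that is 25.0% higher and 75.0% lower, beside 53.1% and 24.2% of all genes. The list of NADPH oxidase subunits holds those of the phagocyte enzyme, which makes superoxide, and Nox4, a separate oxidase not limited to phagocytes. Genes of this list rose in 2 of 7 and fell in 1 of 7 at 6 h, and rose in 6 of 7 at 24 h and 7 of 7 at 72 h. Ncf1 rose from 3.72 ± 0.30 FPKM in sham to 83.1 ± 6.6 FPKM at 72 h (SD, n = 3). At 6 h Ncf1 rose (log2 change 1.38), and Cybb was called lower (-0.39, adjusted p = 0.0416), a call lost in 9 of 15 settings, among them median-of-ratios scaling (adjusted p = 0.0688), 1 joint fit of the 18 mice, the replicate block and leaving out any 1 sham mouse or mouse 1 or 2 of the 6 h group.

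Genes with the time course most like that of a member were sought by the root mean square difference of log2 changes against sham over the 5 times, among 13276 genes, for the 5 members whose group means span more than 1 on the log2 scale. For Hmox1 the nearest were Adam8 (0.40), Tnc (0.64) and Timp1 (0.68). For Gclm they were Fbl (0.051), Acot9 (0.060) and Exosc2 (0.079), and for Slc7a11 Fpr2 (0.092), Itga5 (0.15) and Hilpda (0.16). For Txnrd1 they were Ereg (0.065), Pfkp (0.077) and Heatr1 (0.080), and for Srxn1 Chst1 (0.066), Mir142b (0.079) and Plcxd2 (0.083). The difference is absolute, and the group means span 6.06 on the log2 scale for Hmox1 and 1.09 for Gclm. Its size therefore does not compare closeness between members. The 9 members were left out of the search, so none of them could appear as a neighbour. None of the neighbours found was in the pathway lists. All 5 differences share the same 3 sham mice, so the measure describes likeness of levels in these mice.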

How the data were processed

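RNA of 18 mouse hearts, 3 per group, was sequenced by the authors from polyA libraries (NEBNext Ultra, which does not mark strand). The submitters' processing notes name cutadapt 1.18, HISAT2 2.1.0, StringTie 1.3.4d, Cufflinks, Cuffdiff and the mm10 build, and the annotation is not given in the sources used here. The authors deposited FPKM as 1 table with a row for each gene symbol. It holds no read counts, so precision comes from the spread of 3 mice, and depth is a ratio between libraries estimated from the lowest FPKM. FPKM are shares of a library, so a large rise of a few genes lowers the others. Groups came from the sample titles.

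A gene was kept if any of the 18 mice reached 1 FPKM, which 13333 of 24419 symbols did, and genes constant in a comparison were dropped. Values were analysed as log2(FPKM + 1) with limma 3.58.1 in R 4.3.3 (eBayes with a variance trend), 3 mice against 3 in 9 comparisons, by two-sided tests, and p-values were adjusted by Benjamini-Hochberg across the whole table with a threshold of 0.05. An exact permutation of 3 against 3 cannot go below 0.1. In simulated data with the spread of the sham mice, 191 of 200 genes changed by 1 on the log2 scale were called, with 10 of 13130 unchanged genes. Genes with low levels were not among those changed. All members but Nfe2l2 spread more widely at 24 h than in sham, so this share does not carry over to that comparison. For Srxn1 the coefficient of variation was 5.68% in sham and 44.6% at 24 h.

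The 9 members, the pathway lists and the marker lists were chosen with earlier results of these data known. All members are named, with called genes of each list that changed most (at most 3 higher and 3 lower per time, of which a part is printed) and the 3 genes most alike in time course. Hmox2, and levels of a named gene at other times, are given outside that rule and were chosen after their values were seen. Alternatives were a pseudocount of 0.1, no filter or a filter on the mean, equal sums, a block for the replicate number, no variance trend, 1 joint fit of all 18 mice, leaving out each mouse, quantile normalization and median-of-ratios scaling. Gene positions are from GENCODE M21 on mm10, and upstream sequences from RefSeq (GRCm38.p6). Proteome and other data of the study were not used here.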

Additional observations from a re-analysis of the deposited data

Results flagged for a closer look

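The steps between successive times that passed the test are listed for a closer look because the difference between 2 time points was itself tested. From 1 h to 6 h the log2 fold change was 0.49 for Nfe2l2, 3.54 for Hmox1, 0.509 for Gclc, 0.602 for Gclm, 1.87 for Slc7a11, 1.13 for Txnrd1 and 0.92 for Srxn1, with 9.32% of all genes called higher in this comparison. From 24 h to 72 h it was 2.07 for Hmox1, -0.274 for Keap1 and -0.772 for Nqo1, with 29.7% of all genes called higher and 13.5% called lower. Nqo1 and Hmox1 were thus called in opposite directions at 72 h against 24 h. No sample was screened as standing apart from its group, because groups of 3 are too small for that rule.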

How the results depend on the processing

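Each member was tested in 9 comparisons, 81 values in all, and under the alternatives these gave 1211 values. Of these, 1128 stayed on the same side of the threshold, 67 lost the call, 16 gained one and 0 called values changed direction, while uncalled values near 0 could change sign. Of the counts of members called, the 8 at 6 h against sham became 5 without a filter on low FPKM, which tests more genes, and 4 to 8 when 1 mouse was left out. The 7 at 6 h against 1 h ranged from 4 to 7 without 1 mouse, the 3 at 72 h against 24 h from 1 to 3, the 5 at 24 h from 4 to 6, and the 8 at 72 h stayed at 8. At 24 h against 6 h, 0 were called, and 4 (Keap1, Nqo1, Gclm and Srxn1) with all 18 mice in one fit. With 1 mouse left out, a group of 2 has fewer degrees of freedom. The cause of the other shifts was not tested. At 72 h the median gene changed by 0.29 on the log2 scale, which became 0.04 after scaling by median of ratios and -0.10 after quantile normalization. Of the 111 named values of pathway genes, 79 kept their call in every setting. Gss at 72 h reversed, from 0.23 to -0.074 after scaling by median of ratios and -0.083 after quantile normalization. Slc7a11 had no value with a filter on the mean FPKM in comparisons where its mean was under 1.

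The replicate numbers were not taken as pairs. Same-numbered mice had deviations with correlations from -0.327 to 0.415, over 0.1 in 4 of 27 pairs, and in 0 of the 9 comparisons were all 3 over 0.1. With the replicate number as a block, the count at 6 h against sham was 6, at 24 h 4, at 72 h 8, at 6 h against 1 h 6, and at 72 h against 24 h 2, and it was 0 in the other 4 comparisons.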
